A study of Mus musculus with 26 samples.

Results

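Sperm DNA methylation was compared between SSCT F2/M mice, the maternal-line grandsons of males that carried transplanted spermatogonial stem cells (SSCs), and control F1 mice. The members of the comparison were the autosomal CpG positions with at least 10 reads in all 10 libraries. There were 608566 of them, out of 3600165 autosomal positions seen in any of the 20 offspring libraries, and 606381 remained within the upper coverage limit. They fell in 126732 windows of 1000 bp. Of the 26 libraries of the series, 5 were SSCT F2/M and 5 were control F1. All 10 came from epididymal sperm of DBA/2J males aged 3 months. SSCT, spermatogonial stem cell transplantation, placed long-term cultured SSCs of neonatal DBA/2J mice into the testes of sterile W/W-v males. Daughters of these males (SSCT F1) were mated with control males to give SSCT F2/M, whereas SSCT F2/P had the SSCT F1 sons as fathers. Control F1 mice were bred from control males without transplantation, and only to the first generation, so that the generation of the mice and the transplantation in their ancestry cannot be told apart. The cultured SSCs came from several neonatal lines, and which line stood behind which mouse was not given in the sources used here.

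The names of these 2 sets of mice are not those of the sample titles. The 5 mice called SSCT F2/M here are titled SSCT F1, and the 5 called control F1 are titled SSCT F2/M, although the treatment label of the first set is SSCT and that of the second is WT. The names were set by the mean coverage that the study's supplement lists for CpGs of each comparison. The libraries titled SSCT F1 matched 9 of the 10 means listed for SSCT F2/M, within 0.06 reads, against 2, 0 and 0 for the other offspring sets. The libraries titled SSCT F2/M matched 11 of the 12 means listed for control F1, against 0 for each of the others. The study's own heatmap calls the first set SSCT F2/P. Each value below therefore compares the set labelled SSCT with the set labelled WT, and its assignment to the maternal line rests on this match. In the naming used here, SSCT F2/P stands for the mice titled Control F1, whose treatment label is WT, and SSCT F1 for those titled SSCT F2/P. The coverage match was made only for SSCT F2/M and control F1. The names of these other 2 sets were therefore not tested, and values given for them below carry that limit.

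DNA methylation in mammals is found mainly at CpG dinucleotides, where a cytosine on each strand can carry the methyl group. In the male germ line most of it is set before birth in the prospermatogonia that give rise to SSCs, while CpG islands at gene starts stay largely free of it. After fertilization most of the paternal pattern is erased, with imprinted control regions as the known exception, and it is set anew in the germ cells of the offspring. Reduced-representation bisulfite sequencing (RRBS) cuts the genome at CpG-rich sites and reads, at each cytosine of a CpG, the share of reads in which bisulfite did not convert it. That share is the methylation level, and the 2 strands of a CpG were read as separate positions.

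Coverage summed over CpG positions was 45616751 to 60176288 in the SSCT F2/M libraries and 49632926 to 72218747 in the control F1 libraries. A read counts at each position it covers. The totals gave p = 0.103 in a two-sided exact permutation test over all arrangements of the mice, in which the smallest possible p is 0.00794. The SSCT F2/M libraries have the deposited numbers 1, 3, 7, 8 and 10 and the control F1 libraries 11, 13, 16, 17 and 20. Which of them were pooled for sequencing was not given in the sources used here, and the part of a pool in the results was not tested. As a check of the tissue, the 7 promoters with tested CpGs of 6 imprinted genes listed as unmethylated in sperm (Plagl1, Grb10, Gnas, Mcts2, Zrsr1 and Igf2r) were at or under 6.59% in each of the 10 mice. This check cannot single out sperm, since 87.8% of all tested promoters were under 5% in control F1. Over all their tested CpGs, the 19 genes of that list ran from 0.715% (Mcts2) to 79.1% (Slc38a4) in SSCT F2/M. The tested promoters of Meg3 and Zdbf2, listed as methylated, were at or under 1.12 and 3.11% in each mouse. The 5 imprinted genes listed as methylated in sperm were not high over their tested CpGs. In SSCT F2/M, H19 averaged 17.5%, Dlk1 3.20%, Meg3 38.9%, Rasgrf1 26.2% and Zdbf2 2.13%. Control F1 had 16.8, 2.30, 39.9, 27.0 and 2.33%. Whether these CpGs lie in the imprinted control regions was not tested.

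Average methylation of the 606381 CpGs differed by -0.021 percentage points between the groups. It was 33.5, 33.6, 33.4, 33.6 and 33.5% in the SSCT F2/M mice and 33.5, 33.6, 33.6, 33.4 and 33.6% in the control F1 mice. The groups overlapped completely, with 33.5% ± 0.075 against 33.5% ± 0.107 (SD, n = 5 each, exact permutation p = 0.706). Sperm of both groups held mostly CpGs that were nearly unmethylated or nearly fully methylated. In SSCT F2/M, 62.1% ± 0.108 of the CpGs were under 20% and 28.9% ± 0.107 over 80%, against 62.3% ± 0.178 and 29.1% ± 0.168 in control F1 (SD, n = 5 each, exact permutation p = 0.0556 and 0.175). Between these ends lay 8.98% ± 0.169 of the CpGs in SSCT F2/M, against 8.64% ± 0.278 in control F1 (SD, n = 5 each, exact permutation p = 0.0556). The libraries also differed in median coverage, 34.6 ± 3.97 reads against 40 ± 5.79, and the part of coverage in that difference was not tested. Over all windows, the level of a pair of SSCT F2/M mice correlated with r of 0.957 to 0.963, of a pair of control F1 mice with 0.958 to 0.970, and of a mouse of each group with 0.955 to 0.968. Windows are not independent replicates, and the 3 ranges overlapped.

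Position by position, few CpGs differed by more than 25 percentage points. A position or window is called here when its q-value is below 0.01 in a logistic test on summed reads and the read-weighted difference exceeds 25 points. Of the CpGs, 2612 were called (0.431%), 1256 of them higher and 1356 lower in SSCT F2/M. Of the windows, 454 were called (0.358%), 214 higher and 240 lower. Every CpG and window over 25 points also had a q-value below 0.01, so that the size of the difference alone set the calls. The q-value was below 0.01 at 114995 CpGs and 38443 windows. Of all windows, 81.9% differed by less than 5 points and 5.76% by more than 10. The logistic test takes each read as an independent observation and has no term for differences between mice of 1 group. The variance between the mice of a group was 5.24 times that of binomial counting at the median window, and 9.20 times at the median called window. With an F test scaled by that spread, 0 CpGs and 0 windows were called, although 1341 CpGs and 226 windows over 25 points had an unadjusted p under 0.05. With limma, fitted to the log2 ratio of methylated over unmethylated reads of each mouse, the counts were also 0, with 1639 and 270 at an unadjusted p under 0.05.

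A second way to read the windows is by mouse. In 549 windows (0.433% of those tested) the 5 mice of one group all lay above the 5 of the other, and this includes 42 of the 454 called windows (9.25%), 24 higher and 18 lower in SSCT F2/M. At these 549 windows the exact permutation test reaches its smallest p by definition. The Benjamini-Hochberg adjusted p over all windows was 1 for each of them. With 5 mice per group, the smallest p could pass this adjustment only if far more windows reached it. The adjusted value therefore cannot decide about any single window. The other 412 called windows had mice of both groups in the same range. The called windows had been selected for a large difference between the groups, so that their larger share without overlap is a description.

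The 10 other offspring libraries, which the call did not use, were partly methylated at most called windows: 2.30% of windows between 20 and 80% in those mice were called, against 0.0106% of windows under 5% and 0.0220% of windows at 95% or above. These partly methylated windows were 12.7% of all windows and 81.5% of the called ones. Mice also differed among themselves there, and the SD between the 10 other offspring was 22.9 points at the median called window, 13.3 at the median partly methylated window and 3.65 at the median window of all. The spread within the groups compared, the number of positions and the reads enter the call itself, so their values are a description. The median SD at called windows was 21.2 points among SSCT F2/M and 20.8 among control F1 mice. Of the 454, 321 rested on a single covered position, and the called share was 0.882% of windows with 1 position, 0.263% with 2, 0.187% with 3 to 4, 0.0110% with 5 to 9 and 0 of 14258 windows with 10 or more. Summed over positions, the median called window held 39 reads per mouse, against 104 over all windows.

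**Figure D1:**
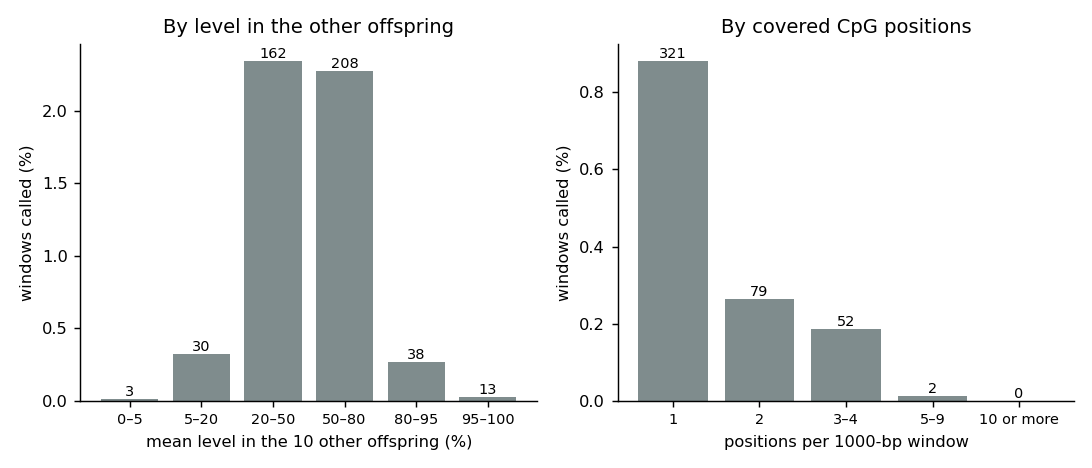
Share of 1000-bp windows called (y axis, %) by mean methylation level in the 10 offspring libraries outside the comparison (left) and by number of covered CpG positions (right), with the number of called windows above each bar. Calls peak at 2.34% of windows with levels of 20 to 50% and fall from 0.882% to 0 as the number of positions rises.

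Called windows were less frequent inside gene spans, 0.231% of 85024 windows against 0.619% of 41708 outside, and least frequent within 1000 bp of a gene start, where 35 of 21138 (0.166%) were called. More than 100000 bp from any start the share was 0.645%. By chromosome it ran from 0.237% on chromosome 12 to 0.456% on chromosome 17, and each autosome had between 10 and 36 called windows. Gene spans and starts are those of RefSeq on GRCm38.p6, and chromosome 18 was left out of the distances.

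A methylated CpG usually carries the mark on both strands, and RRBS reads the strands from different molecules. Over the 72894 CpGs tested on both strands, levels averaged over the 10 mice correlated with r of 0.950 and differed by 1.27 points at the median, which describes CpGs and not replicates. At 318 called positions the other strand had also been tested. The called position itself differed between the groups by 28.6 points at the median, whereas its other strand differed in the same direction by 0.683 points (quartiles -7.24 and 7.90). The other strand went the same way in 166 of the 318, moved by more than 10 points the same way in 56 and by more than 10 the opposite way in 60. It was called in the same direction in 6, which are 3 CpGs, and in the opposite direction in as many. The nearest tested CpG on the same strand, within 30 bp and therefore largely on the same reads, moved along at 1218 of 1500 called positions, by 13.6 points at the median. At the 180 called positions with both neighbours, the medians were 12.3 points for the same strand and 0.702 points for the other.

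**Figure D2:**
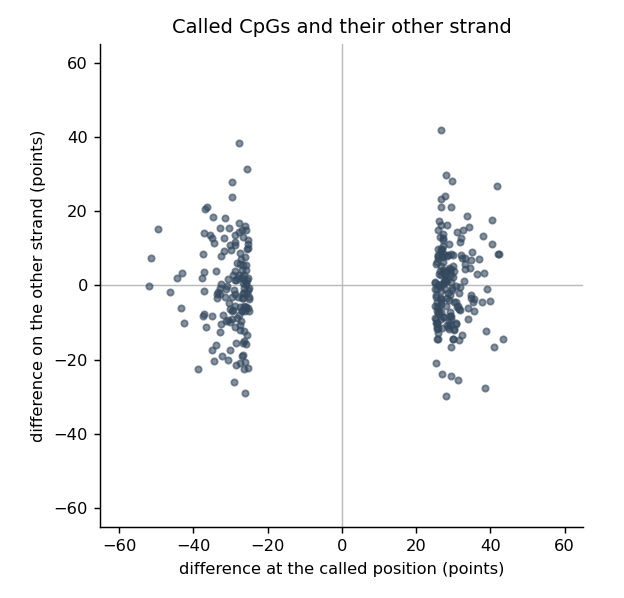
Difference between SSCT F2/M and control F1 (percentage points) at 318 called positions (x axis) and on the other strand of the same CpG (y axis), 1 point per called position. The x values are beyond 25 points by the rule for calling, while the y values scatter around 0, with a median of 0.683 points in the direction of the call.

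Gene starts were tested once more over the 300 bases that RefSeq gives around each start, from 250 before to 50 after it. Of 9466 such promoters with tested CpGs, 8314 (87.8%) were under 5% in control F1. The summed reads called 4 promoters (0.0423%), those of Ppp1r1c, Gm26544, 4930579D09Rik and Foxi1, and 0 by the F test, with 2 over 25 points at an unadjusted p under 0.05. In 71 promoters (0.750%) no mouse of one group reached the range of the other, among them 4930579D09Rik and, below the threshold of 25 points, Alpl. Alpl encodes tissue-nonspecific alkaline phosphatase, an enzyme long used to stain primordial germ cells. Its upstream sequence (chr4:137796385-137796634, minus strand) is shown with that of Gm26544 (chr3:116150229-116150478, plus strand), a predicted gene, since their tested CpGs lie upstream of the start. Capitals mark the tested CpGs in the RefSeq bases before the start, written 5′ to 3′. The reference is the C57BL/6J genome, and bases of DBA/2J may differ from it.
Alpl: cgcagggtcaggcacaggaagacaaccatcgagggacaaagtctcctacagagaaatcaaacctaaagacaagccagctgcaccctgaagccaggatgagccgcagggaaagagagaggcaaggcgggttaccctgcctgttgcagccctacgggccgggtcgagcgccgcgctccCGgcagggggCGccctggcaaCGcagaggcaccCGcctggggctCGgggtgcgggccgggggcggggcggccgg
Gm26544: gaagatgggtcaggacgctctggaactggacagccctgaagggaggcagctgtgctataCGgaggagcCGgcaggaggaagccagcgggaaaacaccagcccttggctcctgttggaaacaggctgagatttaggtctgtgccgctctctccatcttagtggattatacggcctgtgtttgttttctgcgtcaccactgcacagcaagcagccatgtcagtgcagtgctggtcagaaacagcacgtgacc

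The first CpG in capitals of Alpl, 74 bp before the start, was methylated in control F1 and almost free of methylation in SSCT F2/M. Its levels were 4.55, 0, 0, 0 and 0% in the SSCT F2/M mice and 12.9, 59.5, 45.5, 36 and 66.7% in the control F1 mice, on 16 to 42 reads. All 5 control F1 mice lay above all 5 SSCT F2/M mice (0.909% ± 2.03 in SSCT F2/M against 44.1% ± 21.1, SD, n = 5 each, exact permutation p = 0.00794). Alpl was chosen for its lack of overlap, and this CpG for its call, so that this p is no support. For the whole promoter, the q-value of the F test was 0.450. The read-weighted difference was -44.5 points (q = 1.29e-17 in the logistic test). SSCT F1 mice averaged 0% and SSCT F2/P mice 1.67% ± 3.73 (SD, n = 5) at this CpG, so that the control F1 mice alone carried more than a trace of methylation here among the 4 sets. The other 4 tested CpGs, within the next 44 bases on the same strand and the same reads, were at 0 in the control F1 mice except for 20% in replicate 4 at the last of them, and at 0 in SSCT F2/M except for 3.23% in replicate 4 at the first. Over the whole promoter the difference was therefore -9.36 points.

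**Figure D3:**
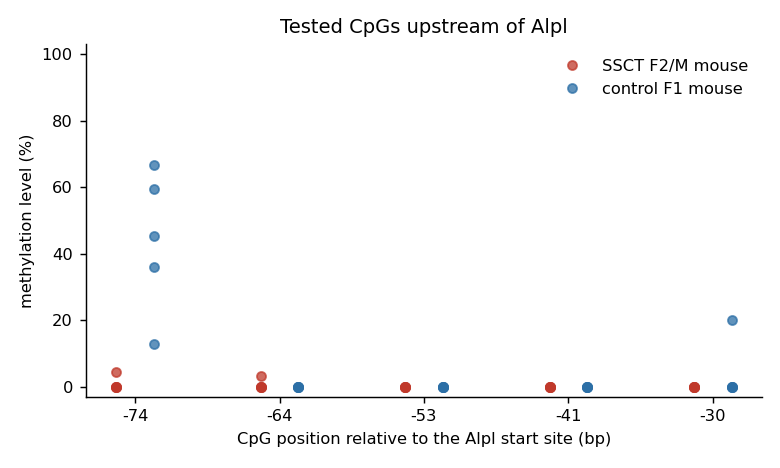
Methylation level (y axis, %) of the 5 tested CpGs upstream of the Alpl start (x axis, bp from the start), 1 point per mouse. At 74 bp before the start the control F1 mice are at 12.9 to 66.7% and the SSCT F2/M mice at 0 to 4.55%, while the other CpGs are at or near 0.

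At the 2 tested CpGs of Gm26544 the SSCT F2/M mice were mostly near full methylation. The first had 100, 100, 48.5, 100 and 88.9% in SSCT F2/M, against 40.7, 64, 87, 0 and 10.9% in control F1. The ranges overlapped, since control replicates 2 and 3 were above SSCT F2/M replicate 3 (exact permutation p = 0.0556). The second CpG had 100, 100, 48.5, 76.5 and 88.2% in SSCT F2/M, against 40.7, 86.3, 100, 0 and 15.2% in control F1. Its read-weighted difference was 27.0 points, against 42.3 at the first, with overlapping ranges (exact permutation p = 0.167). For 4930579D09Rik, an uncharacterized transcript, the tested CpG lies 39 bp after the start. It had 14.7, 0, 10.8, 0 and 0% in SSCT F2/M, against 31.7, 23.6, 50, 16.1 and 51.5% in control F1 (exact permutation p = 0.00794). The promoter had been called for its large difference, so that this p is a description, and the q-value of the F test was 0.521. Foxi1 encodes a forkhead transcription factor of the inner ear and kidney. Its single tested CpG was at 71.4, 33.3, 0, 95 and 22.2% in SSCT F2/M and at 0 in each control F1 mouse, and SSCT F2/M replicate 3 shared that 0 (exact permutation p = 0.0476). The Ppp1r1c CpG, in a gene for a protein phosphatase inhibitor, ranged from 0 to 100% in SSCT F2/M and from 0 to 29.6% in control F1 (exact permutation p = 0.286).

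Of the 42 called windows without overlap between the mice, 18 lay in a gene span or within 2000 bp of one. In SSCT F2/M, 12 of them were higher and 6 lower. Their choice by lack of overlap fixes the exact permutation p at 0.00794, the smallest that 5 against 5 mice can give. This p is therefore no support for them. The q-value of the F test was 0.438 or more at each of them. Of the 42, 15 lay in a gene span itself, whereas 67.1% of all windows did. The 18 are described by what the genes are known for, only as an order of description. The share of such genes among all tested windows was not counted, so that the groupings are no result. Levels are given in the order of replicates 1 to 5.

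Immune signalling was represented by Ccl3 and Ccl4, genes of secreted chemokines that attract leukocytes and whose spans overlap at chr11:83648001-83649000. The window held 3 tested CpGs over 24 bases, all called and all on the minus strand. Each CpG had 16 to 73 reads per mouse, or 48 to 219 when summed over the 3 CpGs. SSCT F2/M mice were at 74.2, 79, 57.4, 78.3 and 70.8% and control F1 mice at 16.7, 17.9, 45.4, 12.6 and 55.7%. This was 72% ± 8.77 against 29.6% ± 19.5 (SD, n = 5 each), a read-weighted difference of 39.9 points. The groups came closest at 57.4 and 55.7%, and SSCT F1 mice averaged 47.8% ± 15.6 (SD, n = 5) and SSCT F2/P mice 58.9% ± 28.4 (SD, n = 5). Taken singly, the 3 CpGs each overlapped between the groups, with exact permutation p of 0.0159, 0.0317 and 0.0476. With a coverage minimum of 5 reads the difference was 20.6 points and the call was lost. Ccl3 is also among the genes the study named for this comparison.

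Genes of the nervous system lay at 3 of the windows. Camta1, a calmodulin-binding transcription activator, had 1 tested CpG in chr4:151428001-151429000 that was at 0, 0, 10.5, 3.23 and 7.14% in SSCT F2/M, against 64.7, 50, 37.5, 37.1 and 40.6% in control F1. No SSCT F2/M mouse passed 10.5% and no control F1 mouse was under 37.1% (4.18% ± 4.61 against 46% ± 11.7, SD, n = 5 each), while SSCT F1 mice averaged 29.4% ± 15.5 (SD, n = 5) and SSCT F2/P mice 26.6% ± 23.7 (SD, n = 5). Lrfn1, a synaptic adhesion protein, had 3.26, 0, 0, 12.5 and 0% against 31.4, 14.3, 22.9, 38.5 and 42.1% at chr7:28453001-28454000, where SSCT F2/M was again the lower group. The call was lost without control F1 replicate 5 (-24.8 points). Tenm3, a teneurin that guides neuronal wiring, was the opposite case at chr8:48509001-48510000. Its 2 CpGs gave 76.9, 57.1, 67.9, 84.2 and 67.5% in SSCT F2/M, against 41.7, 16.7, 0, 16.3 and 54.5% in control F1.

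**Figure D4:**
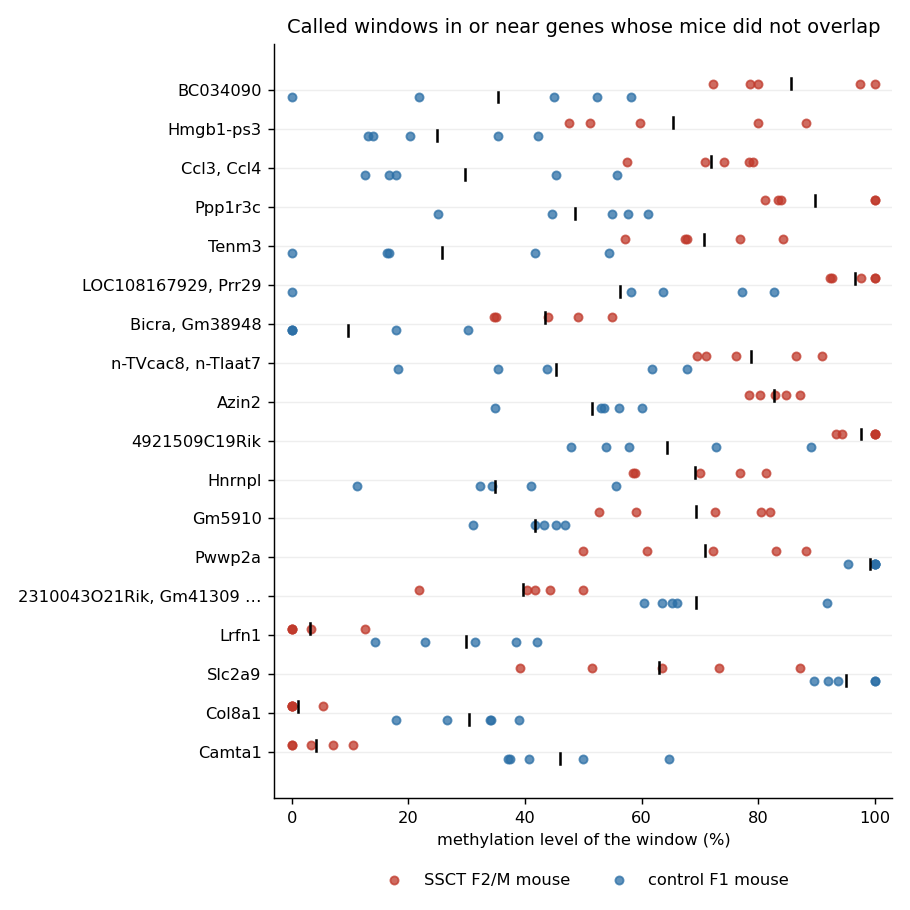
Methylation level (x axis, %) of the 18 called windows in or within 2000 bp of a gene without a shared range of the groups, 1 point per mouse and a black bar for the mean of 5 mice. Gains lie above and losses below, from Camta1 (-41.2 points) to BC034090 (45.2 points).

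Metabolic genes were found at 3 windows. Ppp1r3c encodes a subunit that directs protein phosphatase to glycogen. The window within 2000 bp of it (chr19:36729001-36730000) was at 100, 100, 83.3, 81.1 and 83.9% in SSCT F2/M, against 54.9, 61.1, 44.6, 25 and 57.6% in control F1, a gap of 20.0 points between the nearest mice. Azin2 encodes an antizyme inhibitor that raises polyamine synthesis and is abundant in testis. Its 3 CpGs at chr4:128960001-128961000 gave 87.1, 82.9, 80.4, 84.8 and 78.5% against 53.1, 53.6, 56.1, 60 and 34.9%, or 82.7% ± 3.42 against 51.5% ± 9.7 (SD, n = 5 each). With at least 5 reads in each library the difference was 20.6 points and not called. Here, SSCT F1 mice averaged 63.9% ± 14 (SD, n = 5) and SSCT F2/P mice 60.6% ± 7.65 (SD, n = 5). Slc2a9, a urate transporter, was lower in SSCT F2/M at chr5:38480001-38481000, with 39.1, 51.6, 63.5, 87.2 and 73.3% against 93.6, 89.5, 100, 92 and 100%. It was no longer called without SSCT F2/M replicate 1 (-24.8 points) or with at least 5 reads (-23.9 points).

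Among genes for chromatin and RNA proteins, Hnrnpl, a regulator of splicing, was at 58.8, 70, 76.9, 58.5 and 81.2% in SSCT F2/M, against 32.2, 34.3, 11.1, 41 and 55.7% in control F1 at chr7:28808001-28809000. Leaving out SSCT F2/M replicate 5 brought it to 24.4 points, under the threshold. Bicra, a subunit of a SWI/SNF remodelling complex, was unmethylated in 3 control F1 mice. Its CpG at chr7:15979001-15980000, 322 bp from the start of Gm38948, had 43.9, 34.6, 35, 54.9 and 49% in SSCT F2/M against 0, 0, 0, 17.9 and 30.1%. Pwwp2a, which binds the histone variant H2A.Z, was close to full methylation in control F1 (100, 100, 100, 95.5 and 100%) and lower in SSCT F2/M (50, 72.2, 83, 60.9 and 88.2%) at chr11:43705001-43706000. The Pwwp2a call was lost without SSCT F2/M replicate 1 (-23.6 points), SSCT F2/M replicate 2 (-24.5 points) or SSCT F2/M replicate 4 (-21.8 points). Col8a1, a collagen chain of basement membranes, had 1 CpG at chr16:57626001-57627000 that was at 0 in 4 SSCT F2/M mice and 5.41% in the other, against 26.6, 39, 34.1, 17.9 and 34% in control F1.

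Of the 42 windows without overlap, 4 lay within 1000 bp of a gene start, among them that of Bicra and Gm38948 given above. Windows at gene starts also included those of Prr29, a proline-rich protein, and 4921509C19Rik, an uncharacterized gene. At chr11:106374001-106375000, which also touches LOC108167929, SSCT F2/M mice were at 100, 100, 97.6, 92.6 and 92.3% and control F1 mice at 77.3, 58.2, 82.8, 0 and 63.6%, with replicate 4 at 0. At chr2:151476001-151477000 the levels were 100, 94.3, 100, 100 and 93.4% against 57.9, 72.7, 89, 53.8 and 47.9%, and the call was lost with at least 5 reads (23.2 points). The remaining 5 windows belonged to tRNA genes, pseudogenes and little-known transcripts. The largest difference of the 18, 45.2 points, was in BC034090 at chr1:155218001-155219000, where SSCT F2/M mice were at 100, 72.2, 80, 78.6 and 97.4% and control F1 mice at 58.1, 21.8, 52.4, 0 and 44.9%. The pseudogene Hmgb1-ps3 had 4 called CpGs within 31 bases at chr11:63846001-63847000, with 51.1, 88.2, 80, 47.6 and 59.7% against 20.3, 35.4, 13.9, 13 and 42.3%, while SSCT F1 mice averaged 32.5% ± 14.2 (SD, n = 5) and SSCT F2/P mice 32% ± 8.88 (SD, n = 5). Beside the tRNA genes n-TVcac8 and n-TIaat7 (chr13:22027001-22028000) the means were 78.8% ± 9.49 against 45.4% ± 20.1 (SD, n = 5 each). That call was lost without control F1 replicate 2 (22 points). Near Gm5910 (chr8:83480001-83481000) they were 69.3% ± 13 against 41.6% ± 6.24 (SD, n = 5 each). Here the call was lost without SSCT F2/M replicate 2 (22.1 points), SSCT F2/M replicate 3 (24.7 points) or control F1 replicate 2 (23.6 points). With at least 20 reads in each library the Gm5910 difference was -1.10 points, and with no upper limit of coverage 5.38 points. At 2310043O21Rik, Gm41309, Gm29697 and Siah1-ps2, which overlap at chr15:38576001-38577000, SSCT F2/M was lower, with 39.6% ± 10.6 against 69.4% ± 12.7 (SD, n = 5 each). This one was lost without SSCT F2/M replicate 3 (-24 points) or control F1 replicate 4 (-22.8 points), and with at least 5 reads the difference was -3.70 points.

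Outside genes, 24 called windows had no overlap between the mice. The largest difference of all 454 called windows was there, 58.9 points at chr11:32144001-32145000 (chosen after its values were seen). Methylation was complete (100%) in all 5 SSCT F2/M mice and ran at 17.9, 27.7, 54.3, 11.8 and 82.6% in the control F1 mice, and SSCT F1 mice averaged 68% ± 39.1 (SD, n = 5) and SSCT F2/P mice 83.5% ± 23.3 (SD, n = 5). At chr14:120437001-120438000, likewise chosen for its size, the levels were 25, 31.8, 10.5, 17.9 and 0% against 40, 81.7, 100, 42.2 and 63.2%. Of the 8 windows without overlap that held 3 or more CpGs, 5 lay outside genes. Of these 5, 2 kept their call without any one library. At chr6:86344001-86345000 SSCT F2/M was lower (13.2% ± 9.53 against 45.9% ± 8.3, SD, n = 5 each), and at chr7:36209001-36210000 it was higher (95.9% ± 8.02 against 55.8% ± 32.3, SD, n = 5 each). Without control F1 replicate 2, which was at 0, the difference at the latter was 27.3 points. At chr5:27871001-27872000 the difference was 27.1 points, at chr8:92638001-92639000 -25.9 and at chr11:17720001-17721000 -25.1. The first of them was lost without SSCT F2/M replicate 5 (20.6 points) or control F1 replicate 4 (23.7 points), and with at least 5 reads (12.4 points). The second was lost without SSCT F2/M replicate 2 (-21.7 points), control F1 replicate 1 (-24.1 points), control F1 replicate 3 (-24.7 points) or control F1 replicate 5 (-21 points). It was also lost with at least 20 reads (-2.74 points) and with unweighted means over mice (-24.2 points). The third was lost without SSCT F2/M replicate 1 (-24.7 points), SSCT F2/M replicate 2 (-24.1 points), SSCT F2/M replicate 5 (-23.2 points), control F1 replicate 4 (-24.5 points) or control F1 replicate 5 (-16.8 points).

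The 6 genes the study followed by bisulfite PCR and the 19 it named for this comparison had been picked from these samples, so that calls in them are no independent evidence. The followed genes held 3 called CpGs of 105 (2.86%, against 0.431% of all CpGs) and 3 called windows of 18 (16.7%, against 0.358% of all windows), each with mice of both groups in the same range. Zfp229, a zinc finger gene, had a single tested CpG at chr17:21730001-21731000 with 0, 2.33, 0, 0 and 0% in SSCT F2/M, against 45.2, 30.8, 0, 28.2 and 17.2% in control F1. Control replicate 3 was at 0 like the SSCT F2/M mice (exact permutation p = 0.0476), and all mice of SSCT F1 and SSCT F2/P were at 0 as well. Its call was lost without control F1 replicate 1 (-22.1 points) and with unweighted means over mice (-23.8 points). Lefty2, an inhibitor of Nodal signalling in the embryo, had 78.6, 34.6, 14.6, 38.2 and 94.4% against 23.9, 19.2, 0, 14.9 and 21.1% at chr1:180893001-180894000 (exact permutation p = 0.0397). The Lefty2 call was lost without SSCT F2/M replicate 1 (22 points), SSCT F2/M replicate 5 (18.8 points) or control F1 replicate 3 (21.2 points). Gpx8, a peroxidase of the endoplasmic reticulum whose span lies inside that of Cdc20b, had 100, 100, 27.3, 33.3 and 51.9% against 100, 100, 100, 62.5 and 100% at chr13:113045001-113046000 (exact permutation p = 0.167). The Gpx8 call was lost without SSCT F2/M replicate 3 (-24.2 points). Tal2, F930017D23Rik and Nudt1 had 0 called CpGs. Their mean levels over 16, 6 and 50 CpGs in SSCT F2/M were 2.04% ± 1.80, 85.0% ± 4.96 and 16.9% ± 0.181. Control F1 mice were at 3.86% ± 1.82, 86.9% ± 6.56 and 16.6% ± 1.52 (SD, n = 5 each, exact permutation p = 0.143, 0.595 and 0.770). The study listed an exon of Tal2 as altered in SSCT F2/M, and its bisulfite PCR gave higher Tal2 levels than these in both groups. The values here do not show whether the Tal2 CpGs it followed were among those tested.

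The genes the study named for SSCT F2/M held 24 called CpGs of 553 (4.34%) and 6 called windows of 126 (4.76%). At 2 of these CpGs every SSCT F2/M mouse was at one end of the scale. Slc6a4 encodes the serotonin transporter, and its called CpG at chr11:77009317-77009317 was at 100% in each SSCT F2/M mouse and at 56.4, 38.9, 34.6, 76.1 and 83.3% in control F1 (exact permutation p = 0.00794). On the other strand of that CpG the levels were 93.1% ± 8.57 and 90.5% ± 9.93 (SD, n = 5 each), a read-weighted difference of 3.06 points (exact permutation p = 0.698). Mapt encodes the microtubule protein tau, and its called CpG at chr11:104298548-104298548 was at 0 in each SSCT F2/M mouse and at 40.9, 0, 44.4, 49.1 and 67.6% in control F1, where replicate 2 shared the 0 (exact permutation p = 0.0476). Its other strand was not tested.

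**Figure D5:**
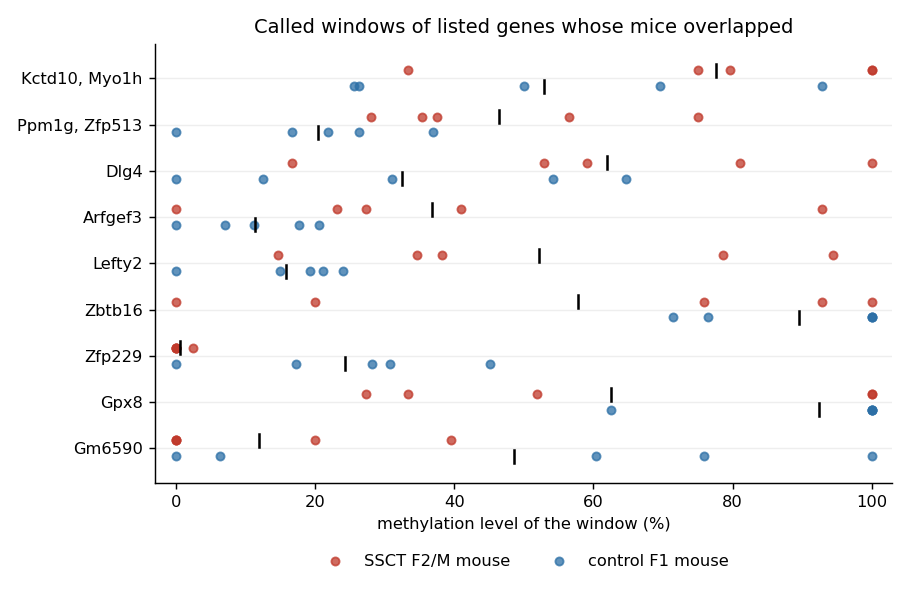
Methylation level (x axis, %) of the 9 called windows of listed genes in which mice of the groups shared a range, 1 point per mouse and a black bar for the mean of 5 mice. In Zbtb16 and Arfgef3 the SSCT F2/M mice spread from 0 to 92.9% or more.

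Dlg4, a scaffold of excitatory synapses, had 4 called CpGs within 27 bases at chr11:70039001-70040000, with 100, 52.9, 81.1, 16.7 and 59.1% in SSCT F2/M, against 54.2, 12.5, 64.7, 0 and 31.1% in control F1 (exact permutation p = 0.159). The Dlg4 call was lost without SSCT F2/M replicate 1 (24.8 points), SSCT F2/M replicate 3 (23.2 points) or control F1 replicate 4 (22.3 points), and with at least 5 reads (21.9 points). Gm6590, a pseudogene, had 20, 0, 0, 0 and 39.5% against 0, 100, 60.4, 6.25 and 75.9% at chr6:130476001-130477000 (exact permutation p = 0.119). The read-weighted difference was -49.4 points, and -21.0 points with at least 5 reads, where the call was lost. The window at chr5:31203001-31204000, in Ppm1g, a protein phosphatase, and near Zfp513, had 37.5, 75, 56.4, 28 and 35.3% against 16.7, 0, 37, 21.9 and 26.3% (exact permutation p = 0.0238). It was lost without SSCT F2/M replicate 2 (22.3 points). At chr5:114365001-114366000, in Kctd10 and near Myo1h, the means were 77.6% ± 27.3 against 52.8% ± 28.9 (SD, n = 5 each, exact permutation p = 0.198). This call was lost without control F1 replicate 3 (21.8 points) and with unweighted means over mice (24.8 points). Arfgef3 (chr10:18660001-18661000) rested on 1 mouse, replicate 2 of SSCT F2/M at 92.9%, without which the difference was 15.7 points, and with at least 5 reads it was 7.40 points, against 28.8 with all mice and at least 10 reads. Averaged over all their tested CpGs, 17 of the 19 named genes differed by less than 5 points between the groups. App, the precursor of the amyloid beta peptide, was at 61.7% ± 0.595 and 61.1% ± 0.549 over 120 CpGs (SD, n = 5 each, exact permutation p = 0.103).

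The other 7 lists held 166 genes of the germ line, of imprinting, of DNA methylation and of body patterning, with 5288 tested CpGs. In them 9 CpGs (0.170%) and 1 of 780 windows (0.128%) were called, below the 0.431 and 0.358% of all CpGs and windows. The called share varies with methylation level and covered positions per window, as given above, and these were not matched. Hox genes, mostly at low levels, held 1817 of these CpGs. The lower share is therefore a description. The 24 imprinted genes had 0 calls among 830 CpGs and 121 windows. Their median difference was 0 points, as over all CpGs, and that of the 7 promoters named above was at most 1.53 points in size. The DNA methyltransferases, their cofactors and the TET demethylases had 0 calls among 609 CpGs. Genes of meiosis and of the piRNA pathway, which silences transposons in the testis, had 1 called CpG of 560, in Tex14, a gene for the bridges between germ cells. It was at 54.6% ± 27.5 in SSCT F2/M, against 82.4% ± 18.2 in control F1 (SD, n = 5 each, exact permutation p = 0.127).

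SSC genes had 1 called CpG of 1080 and 1 called window of 191, both in Zbtb16, which encodes PLZF, a factor for SSC self-renewal. The CpG at chr9:48675001-48676000 had 0, 75.9, 20, 92.9 and 100% in SSCT F2/M, against 76.5, 100, 100, 71.4 and 100% in control F1, with overlapping ranges (exact permutation p = 0.190). Every SSCT F1 and SSCT F2/P mouse with reads there was at 100%, and the mean over all 102 CpGs of Zbtb16 was 47.6% ± 1.12 against 47.9% ± 0.793 (SD, n = 5 each). The Zbtb16 call was lost without SSCT F2/M replicate 1 (-18.2 points), SSCT F2/M replicate 3 (-15 points), control F1 replicate 2 (-22.4 points) or control F1 replicate 3 (-23.8 points). With at least 5 reads the Zbtb16 difference was -3.25 points, against -26.7 with at least 10. Sperm structure genes had 2 called CpGs (0.510% of those tested). In Tekt2, a protein of the flagellar axoneme, the CpG was at 24.1% ± 33.2 against 0% (SD, n = 5 each, exact permutation p = 0.0476). In Spata16, a gene needed to form the acrosome, it was at 50.5% ± 48.1 against 86.3% ± 18.4 (SD, n = 5 each, exact permutation p = 0.190). Over its 17 CpGs Spata16 was at 75.6% ± 3.20 in SSCT F2/M, against 81.2% ± 1.67 in control F1, without overlap (SD, n = 5 each, exact permutation p = 0.00794). Of all 179 listed genes with tested CpGs, 7 (3.91%) had an unadjusted exact p of 0.05 or less for their mean level. Hox genes, which pattern the body axis, had 5 called CpGs of 1817 (0.275%), in Hoxb13, Hoxc13, Hoxd3 and Hoxd4, and 0 called windows of 178.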

How the data were processed

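RRBS libraries of epididymal sperm were prepared by the authors with a commercial kit and sequenced as 50-bp single reads. Per the labels' processing notes, FastQC, Trim Galore 0.4.1, Bismark 0.20.0 and methylKit 1.7.0 were used, with GRCm38 and mm10 named as builds. For each library the authors deposited, per CpG position and strand, the methylated fraction and a raw count of reads covering it. Filters and group tests were not part of the deposited values. Fraction times coverage gave whole methylated reads at all positions, within 0.01 reads plus 1e-06 of the coverage. Added control DNA read 0.542 to 1.17% (unmethylated) and 98.4 to 98.9% (methylated) in these libraries. Any 2 libraries of a group differed by more than sampling noise (mean chi-square per position of 5.58 or more).

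Positions needed 10 reads in each library and coverage within its 99.9th percentile. Reads were summed over 1000-bp windows, where a read counts at each position it covers. Groups were compared with a logistic likelihood-ratio test as in methylKit, Benjamini-Hochberg adjusted over all chromosomes, at q below 0.01 and differences above 25 points, with autosomes reported. This test was run in Python 3.11.15 with SciPy 1.17.1. Values per mouse were compared with two-sided exact permutation tests. By the study's methods, no siblings were placed in the same group. The procedures were tested on simulated data. Samples were grouped as stated in the report, by coverage means and not by title. The members and gene lists were chosen with earlier results of these data known. Named windows were called windows without overlap between the groups: the 12 largest gains and losses in or within 2000 bp of genes, those with at least 3 positions and those within 1000 bp of a gene start, plus every called window in a listed gene. Exons were not annotated, because the RefSeq table gives gene spans only. The sperm of the F0 mice was not used. Alternatives were coverage of 5 or 20 reads, no upper limit, an F test, limma 3.58.1, a replicate block, 10 points, other adjustments, windows and namings, and leaving out each library. Promoters and CpGs called on both strands were added after the data were seen.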

Additional observations from a re-analysis of the deposited data

Results flagged for a closer look

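In 12 of 90 groups of 5 values examined, a single mouse stood far from the other 4 by the size of its gap against the range of the group (over 0.71). This limit would flag about 1 in 20 groups of normally distributed values. Most of the groups here are levels bounded at 0 and 100%, in windows or promoters chosen for their values. Some are tied at these bounds, so that this rate does not apply and the flags are a description. Among SSCT F2/M mice, the window on chromosome 5 at 27871001 had 1 mouse at 100% with the next at 72.2%, the window on chromosome 7 at 36209001 had 1 at 81.7% with the others at 98.0% or more, and the window on chromosome 8 at 92638001 had 1 at 41.7% with the next at 56.8%. At Lrfn1 the highest SSCT F2/M mouse was at 12.5%, at Col8a1 at 5.41% and at Zfp229 at 2.33%, the last 2 with the other 4 at 0. In the Gm26544 promoter the lowest SSCT F2/M mouse was at 48.5%, with the next at 88.2%.

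Among control F1 mice, Azin2 had 1 mouse at 34.9% with the next at 53.1%, and the chromosome 7 window had 1 at 0 with the next at 58.5%. In the window of 2310043O21Rik the highest was at 91.8%, with the next at 66.0%. At Gpx8 and Pwwp2a the lowest control F1 mice were at 62.5% and 95.5%, with the other 4 at 100%.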

How the results depend on the processing

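The 2612 called CpGs became 6169 with at least 5 reads, 546 with at least 20, 32053 with differences above 10 points, 0 by the F test, 0 by limma and 3 when both strands had to be called in the same direction. The 454 called windows became 913, 138, 6487, 0 and 0 under the first 5 of these settings, and 54 with at least 3 positions. Fewer or more positions are tested under other coverage minimums, and a lower limit of difference admits more sites by construction. No upper limit (2612 and 451), adjustment over autosomes (2612 and 454), merged strands (2314 CpGs) and shifted windows (465) stayed within 1.5 times. Both other namings of the sets gave 2740 CpGs and 467 windows. They are the same comparison with its direction reversed, between the mice titled SSCT F2/M and those titled Control F1, all labelled WT. None of the mice called SSCT F2/M here are in it, so that it is no check of their result. Leaving out 1 library gave 3545 to 3967 CpGs and 609 to 696 windows. The counts rose by over 1.5 times without SSCT F2/M replicate 1 (3956 CpGs), replicate 2 (3967 and 683 windows) or replicate 4 (3964 and 696 windows). Between 331 and 363 of the 454 windows were called again. The difference in mean methylation was 0.055 points with reads summed over positions, and -0.066 to 0.0058 points when 1 mouse was left out.

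Same-numbered mice share only a number, since their deviations from the group means correlated with r of -0.0077 to 0.018. The replicate block gave 2587 CpGs and 451 windows, and p = 0.812 for mean methylation in an exact sign-change test over the pairs. Of 32 named windows, 22 were called with at least 5 reads, 6 with at least 20 (24 had no position left), 31 without the upper limit, 29 with unweighted means and 0 by the F test. The Gm5910 window reversed to -1.10 points with at least 20 reads. In 282 of 320 fits that left out a mouse, they were called again, and 14 in each of their 10 fits.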
